A study of Mus musculus with 6 samples.

Results

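The genes described here make up the sterol regulatory element binding protein (SREBP) program of lipid synthesis, a set of 30 named mouse genes among the 24517 genes listed in colon RNA sequencing of 6 libraries. They were taken by name as genes of the pathway, with earlier results of these data known. They comprised 6 enzymes of the mevalonate steps, 11 enzymes from squalene to cholesterol, 5 genes of SREBP control, 3 genes of sterol transport and related targets, and 5 lipogenic enzymes. The list is a chosen subset and leaves out further enzymes of the pathway. All 30 were listed in every library and all 30 were among the 16347 genes tested, with 437 to 17482 counts per library.

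The study asked what loss of NSD2, an enzyme that dimethylates histone H3 at lysine 36, does to the colon of mice on a high-fat, high-cholesterol diet (HFCD). The 3 Nsd2ΔIE libraries came from mice in which Villin-Cre, active in the intestinal epithelium, had removed floxed Nsd2. The 3 Nsd2fl/fl libraries came from mice that carried the floxed gene without its deletion. Both groups had a C57BL/6J background and received HFCD for 16 weeks per the labels (the study's methods give another length and describe male littermates), so no library shows these genes on a normal diet. The ages at sampling were not given in the labels. The RNA was labelled as colon, a mixture of cell types in which fewer cells of a type and less RNA per cell cannot be told apart. The labels number the replicates and do not say that each is a separate animal, so the p-values measure the spread between these libraries only.

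Library totals lay between 38041832 and 38604680 counts. Nsd2 itself had 47.8, 59.1 and 68.9 CPM (TMM-scaled counts, relative to the size of the library) in the Nsd2fl/fl libraries and 24.5, 23.1 and 27.5 CPM in the Nsd2ΔIE libraries, without overlap. Xist, made by female cells, was at or below 0.104 CPM in all Nsd2fl/fl libraries and at or above 535 CPM in all Nsd2ΔIE libraries, and 4 Y-linked genes split the libraries the other way, so genotype and this sex pattern cannot be told apart. The tissue label was checked with epithelial markers, of which Epcam lay between 1233 and 1874 CPM over the 6 libraries. Libraries stood apart within both groups. Hoxb13, a gene of the most distal colon, was at 365, 0.706 and 340.5 CPM in the controls against 310.01, 4.97 and 26.2 in the Nsd2ΔIE libraries. Over all genes other than the 30, the first principal component (51% of the variance) gave scores of -50.4, 54.9 and -55.2 to the Nsd2fl/fl libraries and -34.9, 53.01 and 32.5 to the Nsd2ΔIE libraries. Replicate 2 of both groups and Nsd2ΔIE replicate 3 lay on one side, the side of low Hoxb13. Hoxd10, another position gene, was instead highest in replicate 2 of each group, at 4.49 CPM in Nsd2fl/fl and 9.11 in Nsd2ΔIE.

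As background, SREBPs are transcription factors made as precursors in the membrane of the endoplasmic reticulum. SCAP carries them to the Golgi, where proteases free the part that enters the nucleus, and INSIG proteins hold SCAP back when membranes hold enough sterol. SREBP2 mainly drives the enzymes of cholesterol synthesis and SREBP1 mainly those of fatty acid synthesis, while liver X receptors, activated by oxysterols, raise Srebf1 transcription. In the gut the epithelium both makes and absorbs cholesterol, and adipocytes of the mesentery are a further site of fatty acid synthesis.

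The proximal promoters were examined first, and binding of SREBPs to them was not measured. RefSeq promoters (assembly GRCm38.p6, 250 bases before to 50 bases after the start site) were found for 25 of the 30 members, 33 promoters in all, and none was found for Fdps, Fdft1, Sqle, Scd1 and Stard4. Exact letters were searched on both strands, and a match is a description of the letters only. Sites with other letters were not searched, so the lack of a match does not show that a site is absent. The classical sterol regulatory element, by which SREBPs bind DNA, was in 0 of 33 member promoters and in 0.0913% of 32851 promoters. Its looser form TCACNCCAC, which every match to the classical element also matches, was in 1 of 33 (all promoters 1.24%). The NF-Y box CCAAT, bound by a frequent partner of SREBPs, was in 22 of 33 or 66.7% (all promoters 37.4%). The GC box GGGCGG, bound by SP1, another partner, was in 25 of 33 or 75.8% (all promoters 35.7%). The E-box CACGTG, which SREBP1 can also bind, was in 6 of 33 or 18.2% (all promoters 7.15%). Several members have more than 1 start site, and their windows overlap.

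The 250 bases before the start site are shown for 6 members whose levels divide the libraries, 4 with their lowest Nsd2fl/fl level in replicate 2 (Hmgcs1, Msmo1, Insig1 and Fasn) and 2 with their highest level there (Insig2 and Elovl6). Capitals mark the matches to the 4 motifs spelled above on either strand, so ATTGG is CCAAT and CCGCCC is GGGCGG read on the other strand. The windows are chr13:119690101-119690350 (plus strand) for Hmgcs1, chr8:64733579-64733828 (minus strand) for Msmo1, chr5:28071162-28071411 (plus strand) for Insig1, chr11:120824548-120824797 (minus strand) for Fasn, chr1:121332590-121332839 (minus strand) for Insig2, which is the most upstream of its start sites in the table, and chr3:129532136-129532385 (plus strand) for Elovl6.
Hmgcs1: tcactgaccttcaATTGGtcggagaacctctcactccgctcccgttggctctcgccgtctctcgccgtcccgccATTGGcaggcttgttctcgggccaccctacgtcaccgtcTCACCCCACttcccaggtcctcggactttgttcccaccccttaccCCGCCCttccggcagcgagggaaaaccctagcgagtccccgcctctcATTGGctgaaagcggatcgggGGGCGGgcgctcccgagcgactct
Msmo1: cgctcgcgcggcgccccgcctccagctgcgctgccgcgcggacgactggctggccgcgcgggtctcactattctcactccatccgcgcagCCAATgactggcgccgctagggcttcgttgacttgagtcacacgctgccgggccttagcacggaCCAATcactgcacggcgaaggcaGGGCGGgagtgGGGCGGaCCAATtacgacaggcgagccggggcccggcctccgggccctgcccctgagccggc
Insig1: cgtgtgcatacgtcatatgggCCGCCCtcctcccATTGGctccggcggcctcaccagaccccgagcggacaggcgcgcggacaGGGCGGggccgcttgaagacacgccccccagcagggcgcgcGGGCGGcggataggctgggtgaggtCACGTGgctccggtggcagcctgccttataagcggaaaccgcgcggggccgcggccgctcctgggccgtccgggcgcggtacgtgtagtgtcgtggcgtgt
Fasn: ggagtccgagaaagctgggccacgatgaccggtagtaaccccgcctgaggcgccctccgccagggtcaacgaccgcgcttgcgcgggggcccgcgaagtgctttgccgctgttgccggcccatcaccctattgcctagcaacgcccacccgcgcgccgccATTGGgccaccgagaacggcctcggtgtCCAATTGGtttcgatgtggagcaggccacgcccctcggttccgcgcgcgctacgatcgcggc
Insig2: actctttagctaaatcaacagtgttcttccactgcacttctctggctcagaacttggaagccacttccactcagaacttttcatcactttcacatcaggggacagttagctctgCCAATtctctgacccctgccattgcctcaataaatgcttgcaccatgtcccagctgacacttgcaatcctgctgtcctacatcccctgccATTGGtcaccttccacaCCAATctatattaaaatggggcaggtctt
Elovl6: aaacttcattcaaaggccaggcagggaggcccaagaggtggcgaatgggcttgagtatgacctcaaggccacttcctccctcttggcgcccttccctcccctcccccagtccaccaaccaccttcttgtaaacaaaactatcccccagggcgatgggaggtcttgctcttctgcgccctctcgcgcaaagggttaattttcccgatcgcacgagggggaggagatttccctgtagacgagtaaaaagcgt
Hmgcs1 held the only match to the looser sterol element, 137 bases before the start site, with 3 CCAAT and 2 GGGCGG matches around it. Msmo1 held 3 CCAAT and 2 GGGCGG matches. Insig1 held 1 CCAAT, 3 GGGCGG and 1 CACGTG match. Fasn and Insig2 each held 3 CCAAT matches and no other in the windows shown, 2 of those in Fasn overlapping on opposite strands. The Insig2 promoters at chr1:121327975-121328274 and chr1:121327629-121327928, not shown, each held a GGGCGG match. Which start site the colon uses was not tested. Elovl6 held no match to any of the 4.

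No gene of the program passed a threshold between the genotypes in the edgeR fit with TMM factors. At an adjusted p under 0.05 (edgeR quasi-likelihood test with Benjamini-Hochberg adjustment over all genes tested) 0 of 30 members passed, where 0.0306% of all genes did. The smallest adjusted p of a member was 0.457, for Lss. The 5 genes that passed were Xist and the 4 Y-linked genes, and Nsd2 itself had an adjusted p of 0.302. At this threshold the fit thus called only genes of the sex pattern and missed the deleted gene. At an unadjusted p under 0.05, 0 of 30 passed against 11.1% of all genes. At the threshold of the study, which adds a log2 fold change of at least 0.322 in size, 0 of 30 were higher against 8.05% of all genes and 0 of 30 were lower against 2.21%. DESeq2 called 0 members at an adjusted p under 0.05 and 1, Lss, at an unadjusted p under 0.05. The groups did not overlap for 0 members in the higher direction (all genes 11.4%) and for 1, Sc5d, in the lower direction (all genes 7.28%).

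The fitted log2 fold changes, Nsd2ΔIE minus Nsd2fl/fl, were above 0 for 18 members and below 0 for 12, with a median of 0.08 where the median of all genes was -0.04. Of the 17 sterol synthesis enzymes 13 were above 0, median 0.14. With library totals in place of TMM factors the median of all genes moved to 0.09 and that of the members to 0.21, and 9 of the 12 members below 0 then lay above it, so those directions are relative to TMM. Single libraries also set the direction. Leaving out Nsd2fl/fl replicate 3 gave the 17 enzymes a median of 0.53. Leaving out Nsd2fl/fl replicate 2 gave them a median of -0.033, and leaving out Nsd2ΔIE replicate 3 one of -0.00080. Without Nsd2fl/fl replicate 3, 5 members had an unadjusted p under 0.05 (all genes 9.08%), with Mvk, Idi1, Fdft1 and Lss higher and Mylip lower in Nsd2ΔIE, and 0 had an adjusted p under 0.05. With the first principal component as a covariate 6 members had an unadjusted p under 0.05 (all genes 16.1%), namely Hmgcs1, Mvk, Fdft1, Sqle, Lss and Insig1, all higher, and again 0 passed after adjustment.

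**Figure D1:**
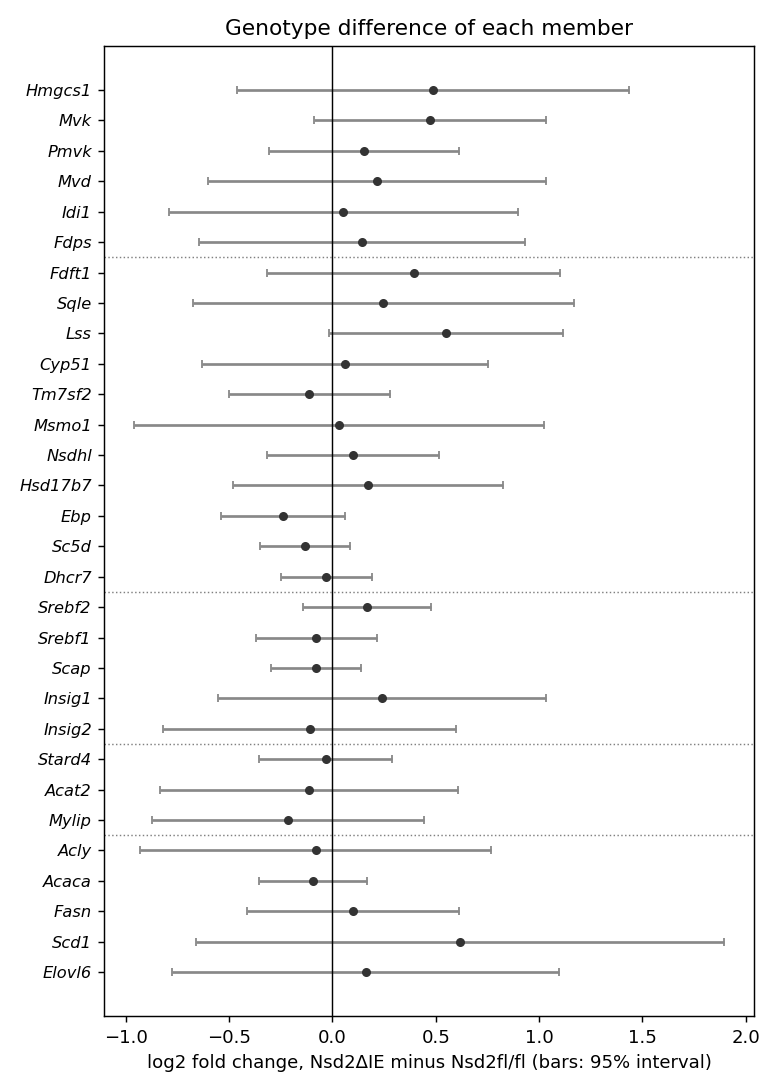
Fitted log2 fold change (x axis, Nsd2ΔIE minus Nsd2fl/fl, TMM-scaled) of the 30 members in pathway order, with dotted lines between the role groups and bars for the 95% interval. Every bar crosses 0, that of Lss by the least (-0.02 to 1.12), and the bars range from narrow for Sc5d (-0.35 to 0.08) to wide for Scd1 (-0.66 to 1.90).

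Levels per gene length, in FPKM averaged over the 6 libraries, spanned from 3.28 for Hsd17b7 to 62.8 for Fdps. The highest levels were those of Fdps (62.8), Msmo1 (55.4), Hmgcs1 (47.9), Acly (41.8) and Ebp (40.2). The lowest were those of Hsd17b7 (3.28), Pmvk (5.48), Lss (5.87), Acaca (6.23) and Insig2 (7.35). Neighbouring steps were thus unequal in level per gene length. Pmvk was at 5.48 FPKM and Mvd, the next step, at 18.1 FPKM. Sqle was at 32.8 FPKM and Lss, the next step, at 5.87 FPKM. The lengths that the deposited values imply were 3401 bases for Pmvk, 1761 for Mvd, 2748 for Sqle and 6913 for Lss. In CPM, which leave length out, the Nsd2fl/fl means of these genes were 17.6, 29.3, 82.0 and 32.6, in that order. The Nsd2ΔIE means were 19.6, 34.0, 97.2 and 47.7. The size of the gaps thus depended on the length used. Of the INSIG pair, Insig1 was at 37.0 FPKM (mean of 6) and Insig2 at 7.35 FPKM, and of the SREBP pair, Srebf2 was at 35.4 FPKM and Srebf1 at 16.3 FPKM.

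**Figure D2:**
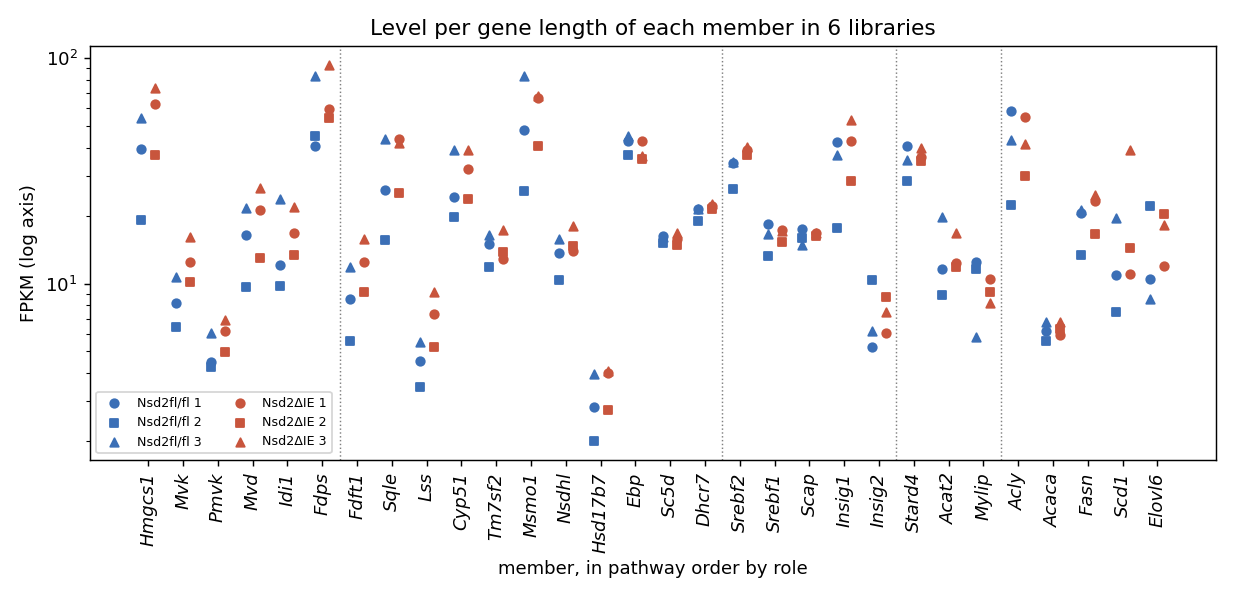
Deposited FPKM (log axis) of each member in each library, in pathway order with dotted lines between the role groups, blue for Nsd2fl/fl and red for Nsd2ΔIE, with marker shapes for replicates 1 to 3. In most enzymes the squares of replicate 2 lie lowest in both colours, while Dhcr7, Sc5d and Scap hold all 6 points close together.

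In the mevalonate steps the fitted levels were slightly higher in Nsd2ΔIE, not beyond the spread of the libraries. All 6 enzymes had a fitted log2 fold change above 0 under each scaling tried, median 0.18 with TMM factors, and 0 of 6 had a p under 0.05. That median rested on single libraries, being 0.035 without Nsd2ΔIE replicate 3 and 0.56 without Nsd2fl/fl replicate 3. Mvd, Idi1 and Fdps were each fitted below 0 when Nsd2ΔIE replicate 3 was left out, Mvd and Idi1 also without Nsd2fl/fl replicate 2, and Idi1 and Fdps also without Nsd2fl/fl replicate 1. Hmgcs1, which makes hydroxymethylglutaryl-CoA at the entry of the pathway, had 165, 87.6 and 246 CPM in the Nsd2fl/fl colon, against 256, 153 and 289 in the Nsd2ΔIE colon. The groups overlapped, and replicate 2 was lowest in each. Its means were 166 ± 79.1 for the Nsd2fl/fl libraries against 233 ± 71.1 CPM for those of Nsd2ΔIE (SD, n = 3 each), a log2 fold change of 0.49 (SE 0.398, interval -0.46 to 1.44), unadjusted p 0.261 and adjusted p 0.689. Mvk, the mevalonate kinase, had 14.5, 12.4 and 20.4 CPM in the Nsd2fl/fl colon, against 21.6, 17.6 and 26.5 in the Nsd2ΔIE colon. Only Nsd2fl/fl replicate 3 exceeded an Nsd2ΔIE library for this gene, and it gave a log2 fold change of 0.47 (SE 0.236, unadjusted p 0.0867).

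Mvd and Idi1 put the libraries of each group in the same order as Hmgcs1 and Mvk. Mvd, which decarboxylates mevalonate diphosphate, had 28.5, 18.4 and 40.9 CPM in the Nsd2fl/fl colon, against 36.3, 22.2 and 43.5 in the Nsd2ΔIE colon. Idi1, which interconverts the isoprene units, had 34.1, 30.2 and 72.8 CPM in the Nsd2fl/fl colon, against 46.9, 37.5 and 57.9 in the Nsd2ΔIE colon. In Idi1 the highest library was a control, Nsd2fl/fl replicate 3, and the log2 fold change was 0.05 (interval -0.79 to 0.90). Fdps, which joins the units to farnesyl diphosphate, had 59.1, 71.1 and 131 CPM in the Nsd2fl/fl colon, against 84.2, 77.4 and 127 in the Nsd2ΔIE colon. Here replicate 3 of both groups stood above the other 4 libraries, and the log2 fold change was 0.14 (SE 0.332). Pmvk, the kinase between Mvk and Mvd, varied least of the 6, from 15.1 to 21.99 CPM, with a log2 fold change of 0.15.

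From squalene to cholesterol the early enzymes varied widely between the libraries, and Sc5d and Dhcr7 near the end of the path varied little. Of the 11 members 7 had a fitted log2 fold change above 0 and 4 below, median 0.06, and 0 had a p under 0.05. Fdft1, the squalene synthase, had 88.01, 62.6 and 132 CPM in the Nsd2fl/fl colon, against 126, 92.9 and 152 in the Nsd2ΔIE colon. Sqle, the squalene epoxidase and a rate-controlling step, had 70.6, 46.3 and 129 CPM in the Nsd2fl/fl colon, against 117, 67.5 and 107 in the Nsd2ΔIE colon. Both were lowest in replicate 2 of each group, and the groups overlapped. The log2 fold change was 0.39 (SE 0.298) for Fdft1 and 0.25 (SE 0.388) for Sqle.

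Lss, the lanosterol synthase that closes the ring system, was the member closest to a genotype difference. It had 30.96, 25.9 and 40.9 CPM in the Nsd2fl/fl colon, against 49.4, 35.1 and 58.5 in the Nsd2ΔIE colon. The values of Nsd2fl/fl replicate 3 and Nsd2ΔIE replicate 2 crossed, so the groups overlapped. The means were 32.6 ± 7.603 for the Nsd2fl/fl libraries against 47.7 ± 11.8 CPM for those of Nsd2ΔIE (SD, n = 3 each), a log2 fold change of 0.55 (SE 0.238, interval -0.02 to 1.12), unadjusted p 0.055 and adjusted p 0.457. Over 16 alternative settings its fitted value stayed above 0, between 0.38 and 0.75, its unadjusted p was under 0.05 in 9, and its smallest adjusted p was 0.216.

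Of the demethylation enzymes, Cyp51, the lanosterol demethylase, had 104, 92.9 and 182 CPM in the Nsd2fl/fl colon, against 136, 100.9 and 158 in the Nsd2ΔIE colon. Msmo1, the methylsterol monooxygenase, had 109.9, 64.9 and 207 CPM in the Nsd2fl/fl colon, against 151, 92.04 and 147 in the Nsd2ΔIE colon. In both genes the highest and the lowest library were controls, and Msmo1 varied 3.19-fold within Nsd2fl/fl with a log2 fold change of 0.03 (interval -0.96 to 1.03). Hsd17b7, the sterol ketoreductase, ranged from 12.3 to 24.1 CPM with both extremes in Nsd2fl/fl, and Nsdhl, the sterol dehydrogenase encoded on the X chromosome, from 24.9 to 37.5 CPM, likewise. Tm7sf2, a sterol reductase with a counterpart in Lbr, ranged from 18.5 to 26.1 CPM. Their log2 fold changes were 0.17, 0.10 and -0.11, in that order.

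Of the last steps Ebp varied by a factor of 1.41 over the 6 libraries and the others by less. Ebp, the sterol isomerase, also X-linked, had 74.1, 70.4 and 83.8 CPM in the Nsd2fl/fl colon, against 72.96, 60.7 and 59.6 in the Nsd2ΔIE colon. All Nsd2ΔIE values but 1 lay below all controls, and the log2 fold change was -0.24 (SE 0.126, interval -0.54 to 0.06, unadjusted p 0.0984). It was fitted below 0 under each of the 16 alternatives, with an unadjusted p under 0.05 in 2 of them, limma-voom (0.0448) and the fit without Nsd2ΔIE replicate 1 (0.0474). Sc5d, the sterol desaturase, had 79.4, 80.6 and 84.9 CPM in the Nsd2fl/fl colon, against 75.6, 71.4 and 76.5 in the Nsd2ΔIE colon. It was the member whose groups did not overlap, with the smallest control at 79.4 CPM and the largest Nsd2ΔIE value at 76.5 CPM, and its log2 fold change was -0.13 (SE 0.0911, unadjusted p 0.190). Dhcr7, the reductase that makes cholesterol from its immediate precursor, had 95.7, 92.6 and 103 CPM in the Nsd2fl/fl colon, against 96.8, 93.8 and 94.7 in the Nsd2ΔIE colon. The highest library exceeded the lowest by a factor of 1.11, the least of all 30 members, and the interval of the log2 fold change was -0.25 to 0.19.

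**Figure D3:**
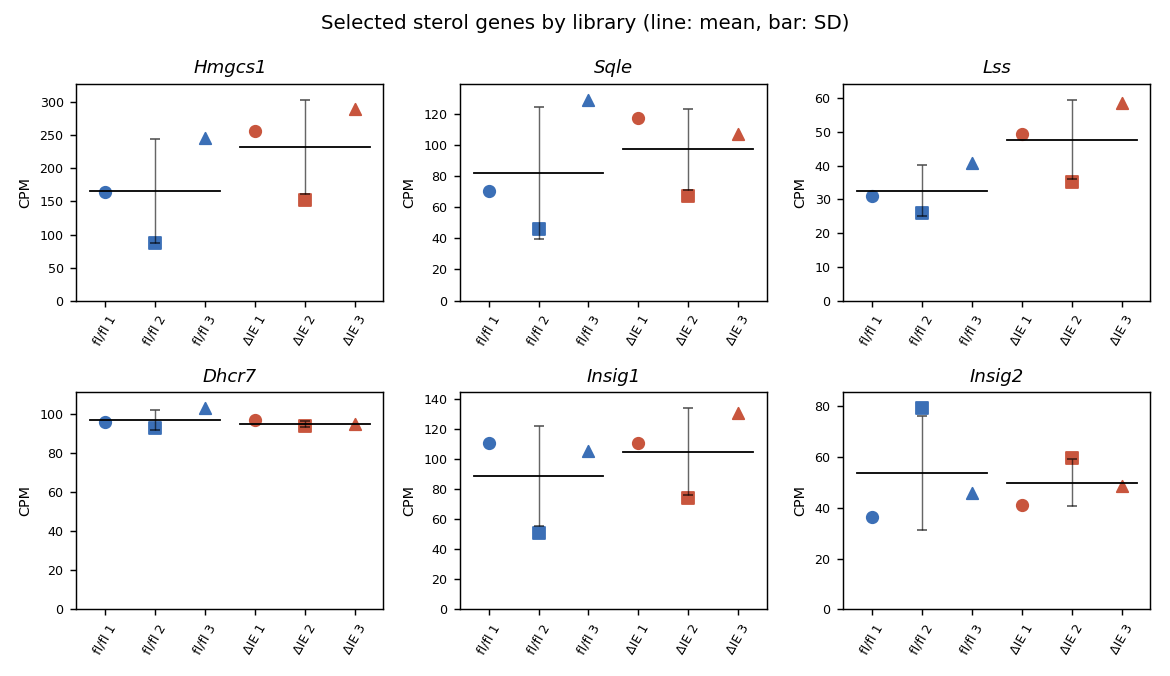
CPM of 6 members in each library, blue for Nsd2fl/fl and red for Nsd2ΔIE, with a line at the group mean and a bar for the SD (n = 3 per group, y axes start at 0). Hmgcs1, Sqle, Lss and Insig1 are lowest in replicate 2 of both groups, Insig2 is highest there, and Dhcr7 stays between 92.6 and 102.8 CPM.

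The sterol enzymes varied from library to library within a genotype, and many of them did so in the same order. The summed level of the 17 sterol enzymes was 1036, 828 and 1582 CPM in the Nsd2fl/fl libraries and 1362, 1005 and 1501 CPM in the Nsd2ΔIE libraries. Replicate 2 was lowest in each group and Nsd2fl/fl replicate 3 was highest of the 6. Each of the 17 enzymes had its highest Nsd2fl/fl value in replicate 3, which 33% of all genes tested also had. In Nsd2fl/fl 14 of 17 were lowest in replicate 2 (all genes 38.1%), and in Nsd2ΔIE likewise 14 of 17 (all genes 34.5%), with 11 of 17 lowest in replicate 2 of both groups (all genes 18.8%). Genes that share a library share its composition, so these counts describe 6 libraries and carry no test.

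Over all 30 members the range within Nsd2fl/fl, as a ratio of highest to lowest, was larger than the fold between genotypes in 29 (all genes 84.7%). The ratio of the highest to the lowest of the 6 libraries had a median of 2.08 over the members and 1.66 over all genes, and exceeded 2 in 16 of 30 members (all genes 37%). Scd1 (4.51), Hmgcs1 (3.30), Msmo1 (3.19) and Sqle (2.79) had the widest ratios. Dhcr7 (1.11), Scap (1.12), Sc5d (1.19), Acaca (1.247) and Srebf1 (1.26) had the narrowest.

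**Figure D4:**
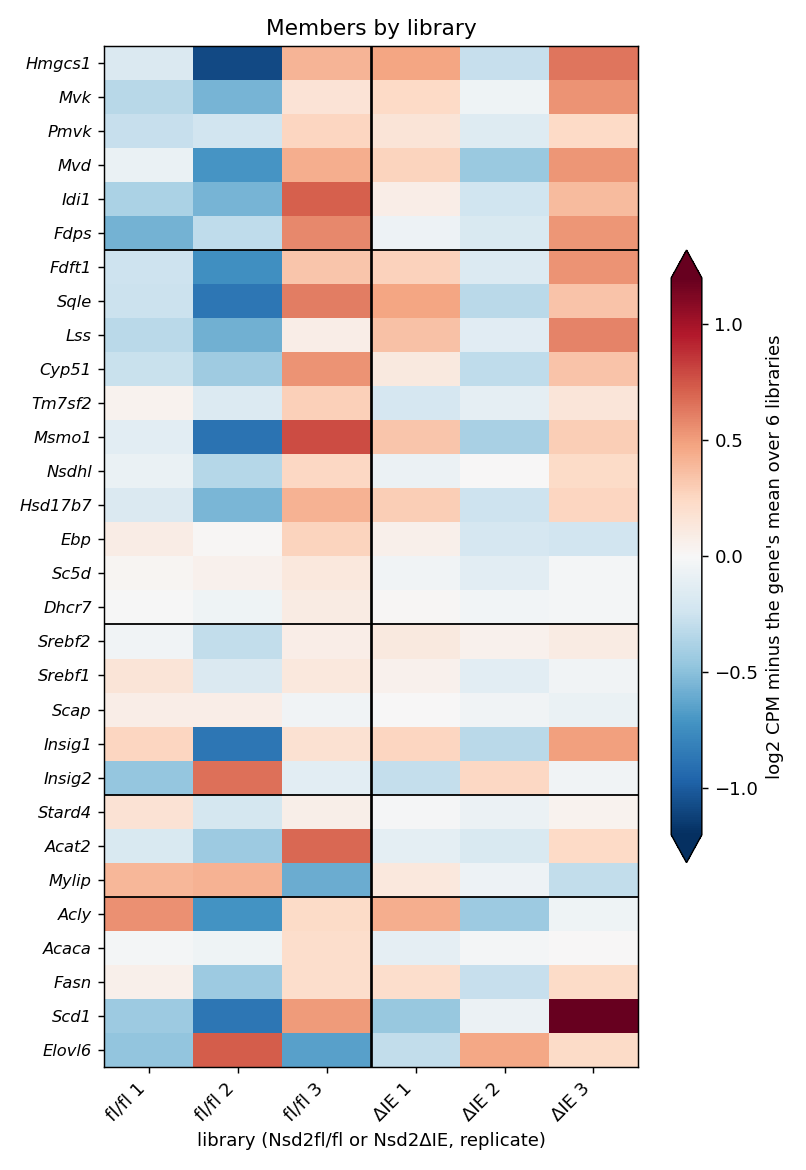
Log2 CPM of each member minus its own mean over the 6 libraries (colour, red above and blue below, ends of the scale at 1.2), with black lines between role groups and between genotypes. Of the 30 members 23 have their lowest control value in replicate 2, and Insig2 and Elovl6 are red in replicate 2 of both groups.

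Markers of tissue composition were set beside this order. The summed level of 8 epithelial markers was 9802, 17309 and 12238 CPM over the controls against 11162, 10500.3 and 9841 over the Nsd2ΔIE libraries, so the control with the lowest sterol enzymes, replicate 2, had the highest epithelial sum. Krt8 alone gave 6695 of that library's 17309 CPM, and Cdh1 was at 1241, 1178 and 1128 CPM in the controls, with replicate 2 between the others. All 8 epithelial markers were fitted lower in Nsd2ΔIE, median log2 fold change -0.31, with 0 at an unadjusted p under 0.05 and 2, Epcam and Cdh1, without overlap between the groups (all genes 7.28% in that direction). The summed level of 8 smooth muscle markers was 3993, 1416 and 4047 CPM over the controls against 5031, 6660.4 and 10770 over the Nsd2ΔIE libraries, and 7 of the 8 had an unadjusted p under 0.05 (all genes 11.1%), higher in Nsd2ΔIE. All 8 markers of enteric neurons and glia had an unadjusted p under 0.05 (all genes again 11.1%), higher in Nsd2ΔIE, with sums from 41.2 to 65.1 CPM over the controls and from 86.3 to 114.7 CPM over the Nsd2ΔIE libraries. The 6 proliferation genes summed to 353, 578 and 752 CPM over the controls and to 372, 472 and 534 over the Nsd2ΔIE libraries, with 0 of 6 at a p under 0.05. The 7 markers of B and plasma cells summed to between 1655 and 2909 CPM over the controls and between 1373 and 1866 over the Nsd2ΔIE libraries, 1 of 7 being lower at an unadjusted p under 0.05. The part of these shifts in the levels of the sterol genes was not tested.

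In SREBP control the transcription factors and SCAP were steady and the INSIG genes were not. Of the 5 genes 2 had a fitted log2 fold change above 0 and 3 below, median -0.08, and the median turned to 0.05 with library totals. Srebf2, which encodes the main activator of the sterol enzymes, had 191, 160.3 and 208 CPM in the Nsd2fl/fl colon, against 214, 204 and 210.4 in the Nsd2ΔIE colon. The Nsd2ΔIE values lay close together and Nsd2fl/fl replicate 2 was the lowest of the 6, with a log2 fold change of 0.17 (SE 0.131, unadjusted p 0.242). Srebf1, the activator of lipogenesis and a target of liver X receptors, had 88.7, 70.4 and 86.99 CPM in the Nsd2fl/fl colon, against 82.7, 73.1 and 77.4 in the Nsd2ΔIE colon. Scap, the escort, had 81.02, 81.1 and 74.5 CPM in the Nsd2fl/fl colon, against 76.7, 74.6 and 72.7 in the Nsd2ΔIE colon. The intervals of both were narrow, -0.37 to 0.22 for Srebf1 and -0.30 to 0.14 for Scap on the log2 scale. These are mRNA levels, and the cleaved nuclear form of SREBP was not measured.

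Insig1, itself a target of SREBPs, had 111, 50.6 and 105 CPM in the Nsd2fl/fl colon, against 111, 73.9 and 130.3 in the Nsd2ΔIE colon. It followed the enzymes in being lowest in replicate 2 of both groups, and its log2 fold change was 0.24 (SE 0.334). Insig2, the second retention protein, whose transcription is less dependent on SREBPs, had 36.3, 79.1 and 46.02 CPM in the Nsd2fl/fl colon, against 41.2, 59.7 and 48.7 in the Nsd2ΔIE colon. It was highest in replicate 2 of both groups, the reverse of Insig1, with a log2 fold change of -0.11 (SE 0.298) that was 0.28 without Nsd2fl/fl replicate 2. Of the 30 members 2, Insig2 and Elovl6, were highest in replicate 2 of both groups (all genes 17.3%).

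None of the 3 genes of sterol transport and related targets had a p under 0.05. Stard4, a soluble sterol carrier, had 219.9, 168 and 205 CPM in the Nsd2fl/fl colon, against 193, 186 and 201 in the Nsd2ΔIE colon. Acat2, the cytosolic acetoacetyl-CoA thiolase that supplies Hmgcs1, had 23.9, 20.03 and 43.8 CPM in the Nsd2fl/fl colon, against 25.03, 23.9 and 32.2 in the Nsd2ΔIE colon. In Acat2, Nsd2fl/fl replicate 3 stood above all others, as in many enzymes of the pathway, although reads may be shared with a near-identical neighbour, Acat3, and how the counting split them is not given in the sources used here. Mylip, the ubiquitin ligase through which liver X receptors lower lipoprotein receptors, had 46.5, 47.1 and 23.3 CPM in the Nsd2fl/fl colon, against 38.4, 33.6 and 28.7 in the Nsd2ΔIE colon. It ran against the enzymes, with its lowest value in replicate 3 of both groups. All 3 fitted log2 fold changes were below 0 (-0.03, -0.11 and -0.21, in that order), and those of Stard4 and Acat2 were above 0 with library totals.

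The lipogenic enzymes were as unresolved between the genotypes, with 3 fitted above 0 and 2 below, median 0.10. The median fell below 0 without Nsd2fl/fl replicate 2 (-0.067), Nsd2fl/fl replicate 3 (-0.0051) or Nsd2ΔIE replicate 3 (-0.046), and was 0.14 without Nsd2fl/fl replicate 1. Acly, which makes cytosolic acetyl-CoA from citrate, had 454, 189 and 365 CPM in the Nsd2fl/fl colon, against 421, 229.9 and 301 in the Nsd2ΔIE colon. Fasn, the fatty acid synthase, had 212, 151 and 236 CPM in the Nsd2fl/fl colon, against 236, 168 and 238 in the Nsd2ΔIE colon. Both were lowest in replicate 2 of each group, Acly by a factor of 2.40 within Nsd2fl/fl. Acaca, the acetyl-CoA carboxylase that feeds Fasn, stayed between 61.5 and 76.7 CPM in all 6 libraries, with a log2 fold change of -0.09 (interval -0.35 to 0.17).

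Being lowest in replicate 2 held for the desaturase in Nsd2fl/fl only, as for Acaca, and for the elongase in neither group. Scd1, the stearoyl-CoA desaturase, had 52.4, 39.1 and 101.1 CPM in the Nsd2fl/fl colon, against 51.8, 67.8 and 176 in the Nsd2ΔIE colon. Nsd2ΔIE replicate 3 was above the other 5 libraries, and the log2 fold change of 0.62 (SE 0.537, unadjusted p 0.288) became -0.10 without it. Elovl6, which elongates palmitate, had 61.3, 142 and 54.3 CPM in the Nsd2fl/fl colon, against 69.5, 118 and 100.2 in the Nsd2ΔIE colon. It was highest in replicate 2 of both groups, and its log2 fold change of 0.16 (SE 0.394) became 0.73, at unadjusted p 0.0189 and adjusted p 0.327, without Nsd2fl/fl replicate 2.

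Of the 9 adipocyte markers, 4 put the libraries of each group in the order of Scd1, namely Adipoq, which encodes adiponectin, Plin1, Lep and Retn. The remaining adipocyte markers did not, Cidec being highest in replicate 2 of both groups and Pck1 in replicate 1 of both. The order of Scd1 was also that of 7 of the 8 smooth muscle markers. The share of all genes in this order was not computed. Lep and Plin1 rested on few reads, with 0 to 14 counts per library for Lep and 0 to 91 for Plin1. Adipoq was at 0.364, 0 and 2.19 CPM over the controls and at 2.57, 3.78 and 10.3 over the Nsd2ΔIE libraries, highest in the library with the highest Scd1. Of the 9 markers, the 4 in the order of Scd1 were at 0 in Nsd2fl/fl replicate 2. Of the 8 tested, 4 had an unadjusted p under 0.05 in edgeR (all genes 11.1%), higher in Nsd2ΔIE, namely Plin4, Fabp4, Retn and Cfd. Adipoq (0.0679) and Plin1 (0.0638) did not pass, and Lep was not tested. The sum of the 9 markers, from 114.1 to 261 CPM over the controls and from 214 to 264 over the Nsd2ΔIE libraries, was mostly Pck1, which other cells of the gut also express. The part of adipose tissue or muscle in the Scd1 values was not tested.

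**Figure D5:**
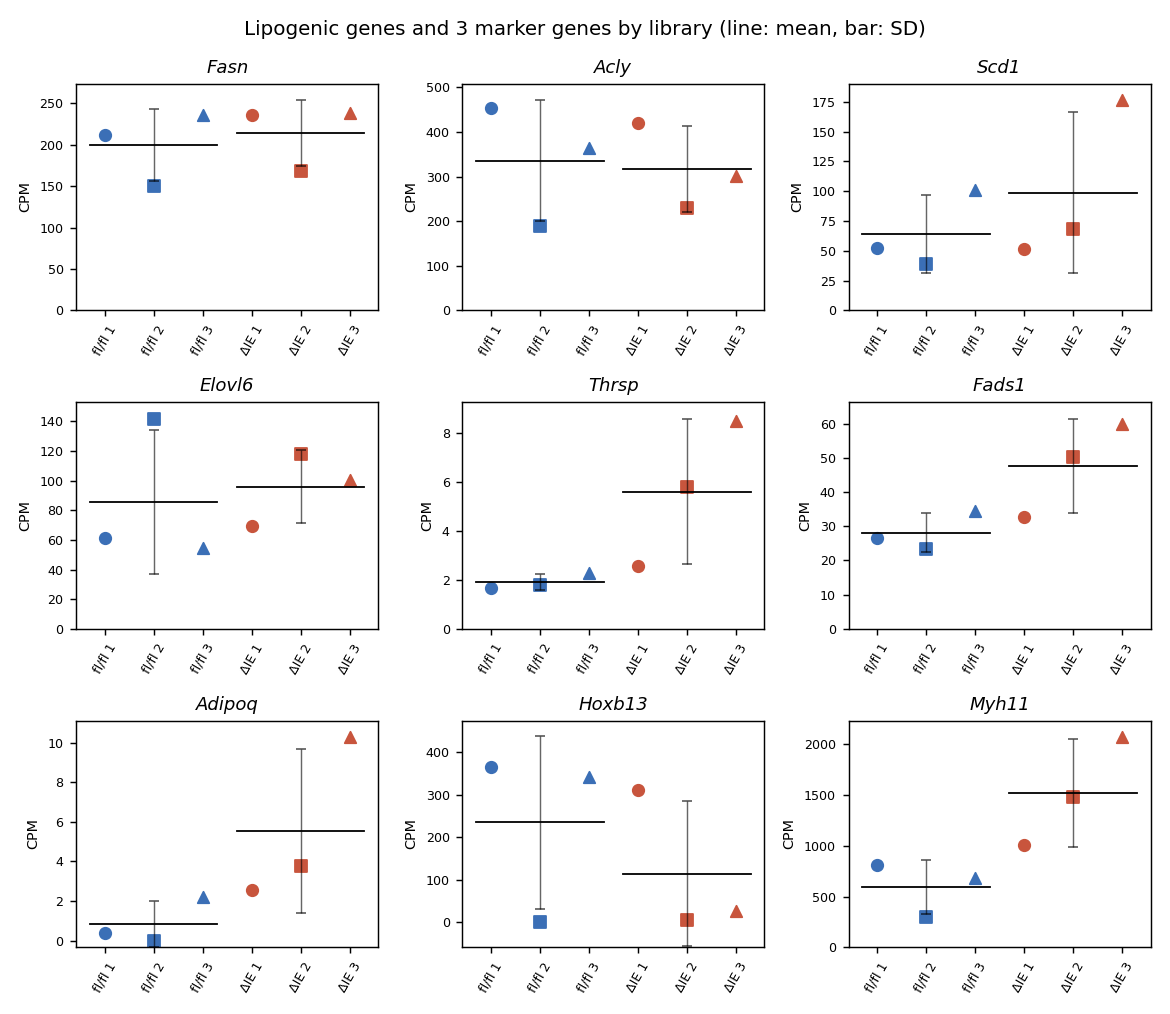
CPM of 4 lipogenic members, 2 further lipogenic genes (Thrsp and Fads1) and 3 marker genes of adipocytes (Adipoq), distal colon (Hoxb13) and smooth muscle (Myh11) in each library, blue for Nsd2fl/fl and red for Nsd2ΔIE, with a line at the mean and a bar for the SD (n = 3 per group). Scd1, Thrsp, Fads1, Adipoq and Myh11 all have their highest point in Nsd2ΔIE replicate 3, the highest Nsd2ΔIE library for 29.1% of all genes tested. Hoxb13 is near 0 in replicate 2 of both groups.

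Other genes of the pathway were counted from a list of 38, all of them tested. Of these 17 had a fitted log2 fold change above 0 and 21 below, median -0.03, and 2 had an unadjusted p under 0.05 (all genes 11.1%), both higher in Nsd2ΔIE and both past the study's threshold. Thrsp, a lipogenic regulator abundant in adipose tissue and liver, had 1.66, 1.78 and 2.27 CPM in the Nsd2fl/fl colon, against 2.55, 5.78 and 8.48 in the Nsd2ΔIE colon. The groups did not overlap, and the log2 fold change was 1.56 (unadjusted p 0.0102, adjusted p 0.312). Fads1, a fatty acid desaturase of the polyunsaturated pathway, had 26.7, 23.4 and 34.5 CPM in the Nsd2fl/fl colon, against 32.7, 50.4 and 59.8 in the Nsd2ΔIE colon. These groups overlapped at Nsd2fl/fl replicate 3 and Nsd2ΔIE replicate 1, and the log2 fold change was 0.76 (unadjusted p 0.0199, adjusted p 0.359). Both genes were highest in Nsd2ΔIE replicate 3, as were Scd1 and Adipoq. Within Nsd2ΔIE, 29.1% of all genes tested were highest in replicate 3.

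Among the 8 genes of SREBP processing and degradation 2 were fitted above 0 and 6 below, and 0 of them had a p under 0.05. Mbtps1, a protease that cleaves SREBP in the Golgi and is named after its values were seen, lay between 129.5 and 159.8 CPM. The isoprenoid branch (6 genes) had 3 above and 3 below 0, and its most abundant gene, Nus1, a subunit of the dolichol-forming prenyltransferase, had 93.2, 228 and 166 CPM in the Nsd2fl/fl colon, against 98.8, 168 and 132 in the Nsd2ΔIE colon. Nus1 was thus highest in replicate 2 of both groups, as were Insig2 and Elovl6. Of the 4 partners of sterol synthesis 3 were above 0, and the most abundant, Pgrmc1, had its highest value in replicate 2 of both groups too (168.9 and 181 CPM, against 92.7 to 129 CPM in the other 4 libraries).

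Scd2, the most abundant lipogenic gene of the list and a relative of Scd1, had 1076, 223 and 1241 CPM in the Nsd2fl/fl colon, against 799, 352 and 521 in the Nsd2ΔIE colon. It was lowest in replicate 2 of both groups, by a factor of more than 4 within Nsd2fl/fl, and its log2 fold change was -0.60 with an unadjusted p of 0.360. Fads2, chosen after its values were seen, had 484, 85.9 and 392 CPM in the Nsd2fl/fl colon, against 322, 116 and 158 in the Nsd2ΔIE colon. It too was lowest in replicate 2 of both groups. Of the 4 genes of the liver X receptor arm (Nr1h2, Nr1h3, Abca1 and Abcg1) all were fitted below 0 with TMM factors (other scalings were not run for them), median -0.20, and 0 had a p under 0.05. Soat1, the more abundant of the 2 sterol esterification genes, had 65.5, 43.7 and 68.3 CPM in the Nsd2fl/fl colon, against 50.99, 41.4 and 47.5 in the Nsd2ΔIE colon, with a log2 fold change of -0.34 and an unadjusted p of 0.112. The groups overlapped.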

How the data were processed

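Colon RNA was sequenced in 3 Nsd2fl/fl and 3 Nsd2ΔIE libraries, with groups and replicates as the labels give them. The authors deposited for each library a raw read count and an FPKM value (reads per gene length and library total) for every gene symbol. The submitters' processing notes name fastp, HISAT2, HTSeq, R 3.2.0 and build mm10. The annotation and the use of strand are not given in the sources used here, so overlapping genes may share reads.

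Counts were tested with edgeR 4.0.16 in R 4.3.3 (filterByExpr, TMM factors, glmQLFit and glmQLFTest, two-sided), with Benjamini-Hochberg adjustment over 16347 genes. SE was taken as the size of the change over the root of F, and intervals are 95%. CPM values are TMM-scaled. The common dispersion, a measure of the spread between libraries, was 0.0967. A count of 0 allows at most 3 counts, under 0.1 CPM, counting error only. Every pair of libraries differed beyond sampling noise (chi-square per degree of freedom at least 35.46).

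Alternatives used DESeq2 1.42.0, limma 3.58.1, other scaling, no filter, each library left out, a replicate block and a principal component as covariate. Gene names were matched to RefSeq (GRCm38.p6) by symbol, 23786 of 24517. The members, gene lists and alternatives were chosen with earlier results of these data known. Named are all 30 members, and of the other lists the genes past the study's threshold, the most abundant or the defining ones, with exceptions stated. The values of 1 gene of the other lists are not reported here, although list counts include it.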

Additional observations from a re-analysis of the deposited data

How the results depend on the processing

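Of 480 member values computed under 16 alternatives (30 members each), 413 kept their sign and 67 did not, and 0 members had an adjusted p under 0.05 in any, the smallest being 0.216. Of 194 counts and medians 148 stayed within the set tolerance. For counts this was a factor of 1.5, and for medians the SD of the list's median level between libraries of a group. A median could thus change sign within it, as that of the sterol enzymes did (0.14, and -0.033 without Nsd2fl/fl replicate 2). The 148 also include the count of members at an adjusted p under 0.05, which was 0 throughout. RLE factors changed no value beyond the tolerance. Over all genes, 491 passed an adjusted p under 0.05 with DESeq2 in place of 5. At an unadjusted p under 0.05 the count of members, 0 with TMM factors, was 1 with upper-quartile factors (all genes 11.3%), 1 with DESeq2 (8.94%), 1 with limma-voom (14.3%), 2 with library totals (11.7%), 2 with log2(FPKM + 1) (13.1%), 2 with log2(FPKM + 0.1) (12.8%), 5 with a replicate block (13.7%) and 6 with the first principal component as covariate (16.1%). Those past the study's threshold in the higher direction numbered 1 with upper-quartile factors (all genes 9.65%), 1 with DESeq2 (6.62%), 2 with library totals (10.5%), 2 and 2 with the FPKM fits (8.47% and 11.5%), 5 with the replicate block (8.94%) and 6 with the component (10.7%). A fold change over 1.5 left 0 with TMM factors, and its share over all genes was not computed. The labels say of no replicate number that it pairs libraries. Same-numbered libraries correlated in their deviations at 0.501, 0.643 and -0.166 over all genes and at 0.582, 0.907 and 0.687 over the members, and 4 of the 6 libraries correlated best with their own number over all genes. With the replicate block Hmgcs1 (0.0102), Mvk (0.0103), Fdft1 (0.0117), Lss (0.00276) and Scd1 (0.0319) had an unadjusted p under 0.05, all higher in Nsd2ΔIE, and 0 an adjusted one (0.309 to 0.332). Hmgcs1, Mvk, Fdft1 and Lss were among the 7 members higher in Nsd2ΔIE in 3 of 3 numbered pairs (all genes 19.6%), and 3 members were lower in all (20.1%).

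With library totals the median of the SREBP control genes was 0.046 and the median of the transport genes was 0.023, and fitted log2 fold changes of the other sign were 0.018 (Tm7sf2), 0.098 (Dhcr7), 0.045 (Srebf1), 0.046 (Scap), 0.032 (Insig2), 0.089 (Stard4), 0.023 (Acat2), 0.028 (Acly) and 0.035 (Acaca). With log2(FPKM + 1) the median of all members was 0.23, the median of the SREBP control genes was 0.065 and the median of the transport genes was 0.076, and fitted log2 fold changes of the other sign were 0.018 (Tm7sf2), 0.095 (Dhcr7), 0.052 (Srebf1), 0.046 (Scap), 0.065 (Insig2), 0.099 (Stard4), 0.076 (Acat2), 0.089 (Acly) and 0.032 (Acaca). With log2(FPKM + 0.1) the median of all members was 0.26, the median of the squalene to cholesterol enzymes was 0.24, the median of the SREBP control genes was 0.078 and the median of the transport genes was 0.085, and fitted log2 fold changes of the other sign were 0.019 (Tm7sf2), 0.099 (Dhcr7), 0.056 (Srebf1), 0.048 (Scap), 0.078 (Insig2), 0.10 (Stard4), 0.085 (Acat2), 0.093 (Acly) and 0.037 (Acaca). With the first principal component as covariate the median of all members was 0.24, the median of the squalene to cholesterol enzymes was 0.25, the median of the SREBP control genes was 0.015 and the median of the transport genes was 0.046, and fitted log2 fold changes of the other sign were 0.015 (Srebf1), 0.046 (Stard4), 0.087 (Acat2), 0.29 (Acly) and -0.098 (Elovl6). With upper-quartile factors fitted log2 fold changes of the other sign were 0.039 (Dhcr7) and 0.034 (Stard4). With limma-voom the median of the SREBP control genes was 0.031, and a fitted log2 fold change of the other sign was 0.031 (Insig2). Without a filter on low counts a fitted log2 fold change of the other sign was -0.0013 (Msmo1). Leaving out each library in turn gave 3 to 5 genes with adjusted p under 0.05 over all genes. Members with unadjusted p under 0.05 then numbered 0 to 5 (all genes 4.94% to 16.1%). Past the study threshold 0 to 4 members were higher (all genes 4.06% to 10.3%). In the lower direction 0 to 1 members passed it, where the share over all genes was not computed. Medians of the log2 fold change then ranged from -0.053 to 0.28 for all members, from -0.033 to 0.53 for the sterol enzymes, from 0.035 to 0.56 for the mevalonate enzymes, from -0.062 to 0.42 for the squalene to cholesterol enzymes, from -0.060 to 0.023 for the SREBP control genes, from -0.14 to -0.0061 for the transport genes and from -0.067 to 0.14 for the lipogenic enzymes. Members with a change of sign ranged from -0.027 to 0.53 (Mvd), from -0.17 to 0.56 (Idi1), from -0.11 to 0.57 (Fdps), from -0.035 to 0.73 (Sqle), from -0.11 to 0.42 (Cyp51), from -0.22 to 0.015 (Tm7sf2), from -0.28 to 0.57 (Msmo1), from -0.033 to 0.27 (Nsdhl), from -0.023 to 0.47 (Hsd17b7), from -0.062 to 0.017 (Dhcr7), from -0.044 to 0.44 (Insig1), from -0.33 to 0.28 (Insig2), from -0.14 to 0.047 (Stard4), from -0.32 to 0.30 (Acat2), from -0.37 to 0.19 (Acly), from -0.067 to 0.25 (Fasn), from -0.10 to 1.11 (Scd1) and from -0.070 to 0.73 (Elovl6). The cause of these shifts was not tested. The lowest member value was 437 counts, and the part of depth was not tested either.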
